A study of Homo sapiens with 4 samples.

Results

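The transcripts described here carry the annotation type retained intron and come from genes that also have a protein-coding transcript in the same RNA-seq table. They were found by 1 rule: each row of type retained_intron whose gene symbol also has a protein_coding row was taken, and it was compared with the protein_coding row of that gene with the highest mean normalized read count, its coding partner. Of the 43596 transcripts of 15113 genes in the table, 7189 were of type retained_intron. A coding partner was listed for 6577 of these, in 3836 genes, which are 31.7% of the 12120 genes with a protein-coding transcript.

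The cells were of MDA-MB-231, a human line from a triple-negative breast cancer, with mesenchymal character. They were kept for 24 h with DMSO, the solvent, or with 10 µM KH-3, a small molecule that the study describes as an inhibitor of the RNA-binding protein HuR. There were 2 libraries per condition, made from poly(A)-selected mRNA. The table gives for each transcript 1 mean normalized read count over libraries, as the authors computed it, and no value per library. Depth per library, the spread between replicates and any difference between DMSO and KH-3 therefore cannot be shown from these means, and all values below are descriptions with no test. Most of the line's markers were as labelled. VIM, MSN, CAV1 and CD44 had summed mean counts of 21693, 10867, 6580 and 1837, while CDH1, ESR1 and PGR were not listed and EPCAM reached 71.1. KRT19, a keratin taken as a marker that should be low, was listed at 2458, above CD44, and ERBB3 at 142.

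Splicing removes introns from a pre-mRNA by joining the 5′ splice site, which nearly always begins with GT in the DNA, to the 3′ splice site, which ends with AG. When an intron is left in, its sequence stays in the RNA. Such RNAs are often held in the nucleus, and those that reach the cytoplasm often carry an early stop codon in the retained sequence and can be degraded by nonsense-mediated decay. Genes of the splicing machinery and of RNA-binding proteins are known for retained introns that are used to limit their own expression. The annotation type is broad, and many models of this type are partial RNAs that begin or end inside an intron.

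The first 3 introns of at most 300 bases that are held by the most abundant of these transcripts are shown, since they are sequence that the mature mRNA of the partner lacks. HSP90B1-003, a transcript of the gene for the endoplasmic reticulum chaperone GRP94, holds intron 12 of 17 of its partner (hg38, chr12:103942797-103943073, plus strand, 277 bases, within the coding sequence). VCP-005, from the gene for the AAA ATPase p97, holds intron 8 of 16 (chr9:35062139-35062216, minus strand, 78 bases, coding). RPL5-004, from a gene for a protein of the large ribosomal subunit, holds intron 2 of 7 (chr1:92833459-92833544, plus strand, 86 bases, coding). The GT and AG of the splice sites are in capitals, and the 3 sequences read 5′ to 3′ on the transcript strand.
HSP90B1 intron 12: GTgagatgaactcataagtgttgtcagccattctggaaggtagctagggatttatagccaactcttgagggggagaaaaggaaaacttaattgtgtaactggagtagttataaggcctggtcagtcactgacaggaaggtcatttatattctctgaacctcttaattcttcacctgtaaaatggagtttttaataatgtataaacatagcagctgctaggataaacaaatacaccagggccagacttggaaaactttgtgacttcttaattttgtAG
VCP intron 8: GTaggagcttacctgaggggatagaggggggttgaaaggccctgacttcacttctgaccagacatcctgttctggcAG
RPL5 intron 2: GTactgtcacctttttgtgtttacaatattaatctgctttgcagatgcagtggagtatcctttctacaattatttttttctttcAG
Read in the frame of the partner, a stop codon occurs within each of the 3 introns. Their GC content was 38.3%, 55.1% and 32.6%, so the introns of the most abundant transcripts were not uniformly rich in GC.

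The 5′ splice sites of the introns held by abundant or high-ratio transcripts show how much these sites vary. Each is given as 3 exon and 6 intron letters with the GT in capitals, and they can be compared with the common human pattern CAG in the exon followed by GTAAGT in the intron.
HSP90B1 intron 12: gagGTgaga
VCP intron 8: aaaGTagga
NCL intron 7: aagGTatgt
RPL5 intron 2: gagGTactg
TUBB4B intron 3: tcgGTgagc
RPL6 intron 6: gagGTaagt
DDX5 intron 12: tagGTtagt
BSG intron 3: acgGTgagt
MIF intron 2: cagGTacgc
RPS28 intron 2: cagGTaatc
The site of RPL6 matched the pattern at 8 of 9 letters. Those of VCP, RPL5 and TUBB4B matched at 5, and the remaining 6 sites at 6 or 7. Of these introns, that of BSG was without a stop codon in the partner's frame.

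Levels between transcripts were compared as mean normalized read count per kb of transcript length. The retained-intron transcripts were mostly well under their partners. Their mean count had a median of 28.8 (quartiles 13.9 and 79.3, range 7.34 to 13956) at a median length of 1195 bases, against a median mean count of 375 at 2912 bases for the partners. Per kb, the medians were 22.5 and 121. The log2 ratio of the count per kb to that of the partner had a median of -2.14, or 0.227 of the partner's level, with quartiles of -3.65 and -0.62 and a range of -10.45 to 7.63. At most 1/2 of the partner's level was reached by 4536 of the transcripts (69.0%), at most 1/4 by 3456 (52.5%) and at most 1/8 by 2270 (34.5%). A level above the partner was found for 1115 transcripts in 816 genes, 17.0% of the total (95% Wilson interval 16.1 to 17.9%, which covers the counting of transcripts only), and 116 were at least 8 times as high.

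**Figure D1:**
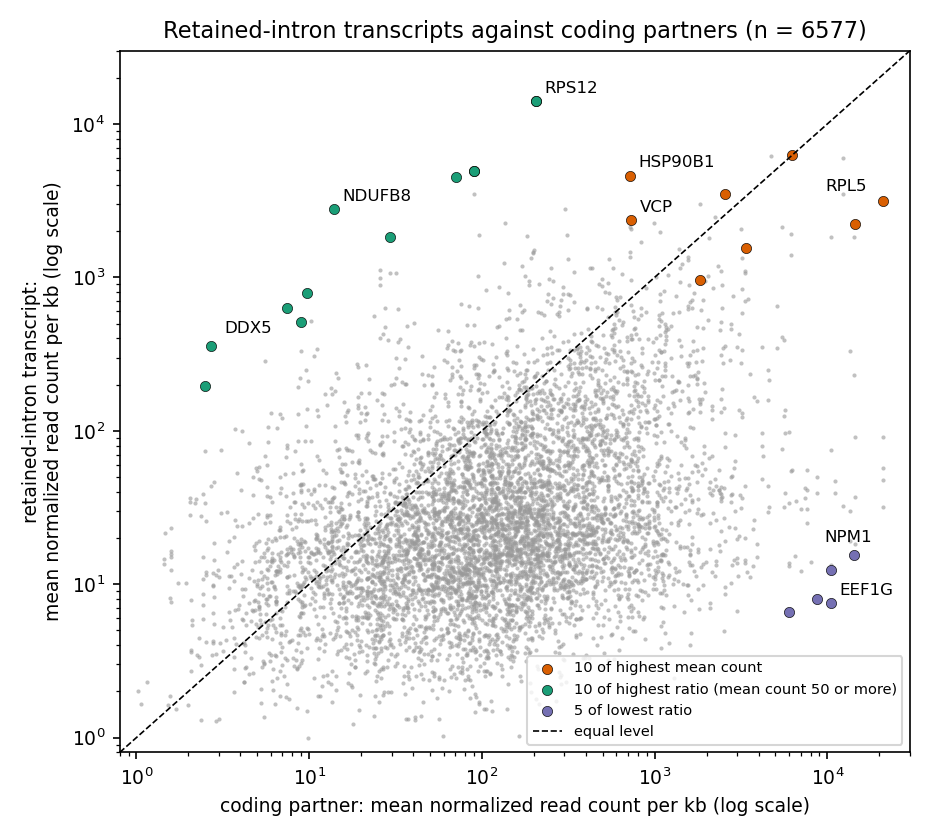
Mean normalized read count per kb of each retained-intron transcript (vertical, log scale) against that of its coding partner (horizontal, log scale), 1 point per transcript, with the named groups in colour and equal levels as a dashed line. Most of the 6577 points lie under the line, and the 10 transcripts of highest ratio lie far above it at partner levels of 205 per kb or less.

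The ratio depends on how the partner and the listing work. The partner was taken for its high count, which pulls the ratio down, and rows under 7.34 are not in the table, which pulls it up. For a transcript of median length against a partner of median level, the lowest log2 ratio that could be listed was -4.30. For 394 transcripts (5.99%) a ratio under -1 could not have been listed. A transcript's level followed that of its partner only loosely, with a Spearman correlation of 0.36 across the 6577 pairs, which share libraries and, within a gene, reads. In 4 groups of near-equal size by partner level, from lowest to highest, the median log2 ratio was -0.23, -1.91, -2.87 and -4.04. The share above the partner was 44.5%, 13.5%, 7.04% and 2.68%. The partner's level is itself the lower part of the ratio and cannot be told apart from it here.

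Taken as a share of the gene's signal, meaning the transcript's mean count over the sum of itself and all protein-coding rows of the gene, the median was 7.38%. The share passed 10% for 2855 transcripts (43.4%) and 50% for 613 (9.32%). All 6577 transcripts together held 5.31% of the summed mean count of the table, against 85.9% for protein-coding transcripts. With all such transcripts of a gene summed, they exceeded the summed protein-coding rows in 583 of 3836 genes (15.2%). A single retained-intron transcript was listed for 2206 genes, 2 for 951, 3 for 420 and at least 4 for 259. Genes with more coding signal had one more often: in 4 equal groups of genes by summed coding count, from lowest to highest, 25.1%, 29.9%, 32.2% and 39.4% had at least 1.

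Among the 10 transcripts of highest mean count, HSP90B1-003 (chr12:103930438-103947927) had the highest, 13956, against 2066 for its partner HSP90B1-001. Per kb this was 6.37 times the partner's level, a log2 ratio of 2.67, and the model starts and ends within 50 bases of the partner. Of its 3032 bases, 278 lie outside the partner of 2858 bases, nearly all of them in the held intron of 277 bases. VCP-005 (chr9:35056870-35072549) stood at 6947 against 3193 for its partner, a log2 ratio of 1.69. The bases of VCP-005 outside the listed coding rows number 78, those of intron 8. By listed length VCP-005 has 2942 bases and its partner 4370. Bases of a partner that its transcript lacks were not counted. How reads were divided between these models was not tested.

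RPS12-002 (chr6:132814569-132817564) had a mean count of 8979 against 130 for RPS12-001, the lone coding row of this gene for a protein of the small ribosomal subunit, and a log2 ratio of 6.10. It holds no whole intron of its partner but 136 further exon bases that lie in introns. RPL14-003 (chr3:40457877-40462368) stood at 3907 against 82.9 with a log2 ratio of 5.76, and only 13 of its bases lie outside the listed coding rows of RPL14. RPL6-014 (chr12:112405190-112406344), with the last intron of RPL6 (chr12:112405377-112405852, minus strand, 476 bases), stood at 3143 against 2426, a log2 ratio of 0.45. LDHB-008, from the gene for lactate dehydrogenase B, had a mean count of 4262 and a level equal to its partner's within the rounding used here (log2 ratio 0.0044). In these 6 transcripts, LDHB-008 included, the level was above the partner's. Genes for ribosomal proteins are known for many near-identical processed pseudogenes, and how these touched the read assignments here was not tested.

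The other 4 stood under their partners. NCL-002 (chr2:231454908-231483641), from the gene for nucleolin, a nucleolar RNA-binding protein, had 3839 against 7411 and a log2 ratio of -0.92. It holds intron 7 of 13 (chr2:231458390-231459000, minus strand, 611 bases), and 1569 of its bases in all lie outside the listed coding rows. TUBB4B-002 holds the last intron of a beta-tubulin gene (chr9:137242022-137242495, plus strand, 474 bases) and had 3169 against 5532, a log2 ratio of -1.12. RPL5-004 (chr1:92832762-92836271) had 3490 against 22046, the ratio being -2.76 on the log2 scale. Its held intron has 86 bases, while 713 bases of RPL5-004 lie outside the listed coding rows. RPLP1-003 (chr15:69452819-69455546), from the gene for an acidic protein of the ribosomal stalk, had 4390 against 6407 and, being much longer than its partner, a log2 ratio of -2.69.

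Among transcripts with a mean count of at least 50, the 10 of highest ratio were 54.4 to 198 times their partners per kb. NDUFB8-001, from the gene for a subunit of respiratory complex I, led with 1081 against 9.56 and a log2 ratio of 7.63. DDX24-010 and DDX5-002, from genes for DEAD-box RNA helicases, followed with log2 ratios of 7.06 and 6.40 at mean counts of 291 and 2243. DDX5-002 (chr17:64499616-64506289) holds intron 12 of 13 of its partner (chr17:64500774-64502009, minus strand, 1236 bases). BSG-012, from the gene for basigin, a surface glycoprotein, stood at 459 against 17.4 with a log2 ratio of 6.34, and DYRK4-016, from a kinase gene, at 100.4 against 8.11 with 6.30.

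Besides RPS12-002 and RPL14-003, the group held MIF-002, RPS28-003 and MALSU1-005. MIF-002, from the gene for the cytokine MIF, had 2661 against 66.8, a log2 ratio of 5.99, and holds the last intron (chr22:23894945-23895039, plus strand, 95 bases, 82.1% GC). RPS28-003, from the gene for a small-subunit ribosomal protein, had 1672 against 39.0 and a log2 ratio of 5.96. It holds both intron 2 (chr19:8321704-8321952) and intron 3 (chr19:8322092-8322271) of its partner, the latter in the 3′ UTR. MALSU1-005, from a gene for mitochondrial ribosome assembly, had 292 against 27.3 and a log2 ratio of 5.83.

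These 10 were picked on the ratio, which favours partners of low level, from 2.48 (DYRK4) to 205 per kb (RPS12) against a median of 121 over all partners. A single coding row was listed for 8 of the 10 genes, as it was for the genes of 28.7% of all retained-intron transcripts. The partner was the MANE Select transcript, the reference mRNA chosen for each human gene, in 6 of the 10 and for 61.7% of all. For NDUFB8, DDX5, BSG and DYRK4 the MANE Select transcript was not among the table's rows. In 5 of the 10, against 10.9% of all transcripts compared, under 100 bases of the transcript lie outside the listed coding rows: 13 bases for RPL14-003, 26 for DYRK4-016, 41 for MALSU1-005, 59 for DDX24-010 and 99 for MIF-002. How far these properties account for the high ratios was not tested.

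The 5 transcripts of lowest ratio were picked on the ratio, which favours partners of high level. Rows under 7.34 are not listed, so only such partners allow ratios this low. Their partners stood at 6033 (RPL23) to 14198 per kb (NPM1), and the transcripts had mean counts of 7.92 to 18.7. EEF1G-002, from the gene for a subunit of translation elongation factor 1, had 18.7 against 15953 and a log2 ratio of -10.45. It runs from end to end of its partner and holds the first intron (chr11:62572743-62573830, minus strand, 1088 bases). RPL37A-003 and RPL23-008, from genes for large-subunit ribosomal proteins, had log2 ratios of -10.09 and -9.85 at mean counts of 13.6 and 18.2. NPM1-009, from the gene for nucleophosmin, had 7.92 against 18997, a log2 ratio of -9.84. Its model in the annotation used here holds intron 4 of 11 (chr5:171391425-171391705, plus strand, 281 bases). That model has 10 exons, while the listed length of NPM1-009 was 510 bases, so the model may differ from the transcript that was quantified. ACTB-007, from the beta-actin gene, had 10.16 against 20153 and a log2 ratio of -9.73. Its partner was not found in the annotation used here.

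Where a whole intron is held was read from the annotation, GENCODE release 44 on hg38, since the rows give no exons. Both the transcript and its partner were found for 6339 of the 6577 pairs. At least 1 whole intron of the partner lay inside an exon for 2734 transcripts (43.1%) in 1912 genes. The 95% Wilson interval, 41.9 to 44.4%, covers the counting of transcripts only, and transcripts of the same gene are not independent. A further 3249 (51.3%) start or end within an intron of the partner without holding a whole one, 139 have other exon bases in an intron and 217 have none. A single intron was held by 1919 transcripts, 2 by 524, 3 by 161 and at least 4 by 130, with a maximum of 9. The 3′ end was within 50 bases of the partner's for 1491 transcripts (23.5%), the 5′ end for 1263 (19.9%) and both for 307 (4.84%). Neither end was so for 3892 (61.4%). An end farther off does not by itself show that a model is partial.

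The 3718 distinct introns that were held are compared here with the 22779 other introns of the same partners. Held introns were shorter, with a median of 278 bases (quartiles 128 and 635) against 825 (231 and 2304), and 52.7% against 29.8% had at most 300 bases. The definition favours short introns, since a held intron must fit whole in an exon and the transcripts had a median length of 1195 bases. Introns in which a transcript only starts or ends were counted with the others. They were richer in GC, with a median of 55.1% against 49.2%. More of them were the last intron of the partner (9.90% against 6.74%) and fewer the first (6.08% against 7.37%). Introns of the coding sequence made up 96.8% and 95.8%. Introns that share a gene or lie beside each other are not independent, and these figures describe annotated transcripts that passed the listing minimum.

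**Figure D2:**
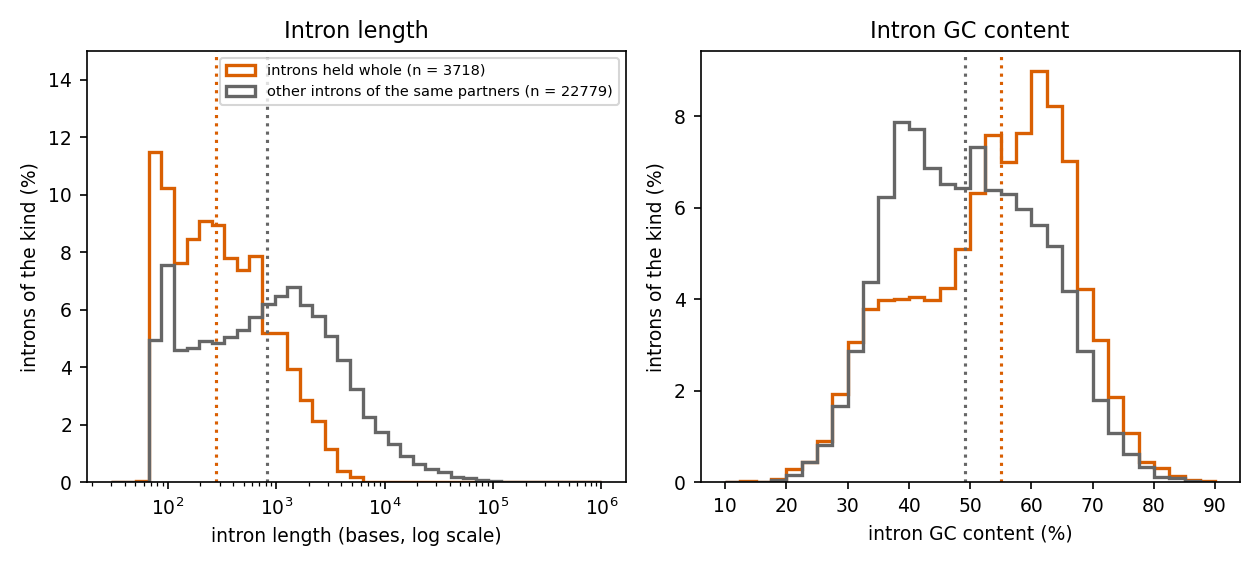
Distribution of length (left, bases, log scale) and GC content (right, percent) of the 3718 introns held whole by retained-intron transcripts and the 22779 other introns of the same coding partners, as the percent of introns of each kind per bin, with dotted lines at the medians. Held introns have their medians at 278 bases and 55.1% GC, the others at 825 bases and 49.2%.

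The splice sites of both kinds were much alike in their fixed letters. GT at the start together with AG at the end was found in 98.6% of held and 99.1% of other introns. Of the 9 letters of the 5′ splice site pattern, 6.07 (SD 1.03) matched on average in held introns and 6.29 (SD 0.96) in others. Single introns of both kinds overlap widely in this number, and the difference of the means was not tested. The 20 bases before the final AG held 74.5% and 74.9% C or T. A stop codon in the partner's frame occurred in 87.3% of held coding introns against 92.0% of others, and 30.7% against 33.7% had a length divisible by 3. The held introns were also shorter, and the part of length in this difference was not tested.

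HuR is known to bind AU-rich and U-rich RNA, so 5-letter motifs were counted in windows of equal size. Among introns of at least 100 bases, ATTTA on the transcript strand occurred in the first 100 bases of 8.69% of held introns and 12.7% of others, and in the last 100 bases of 8.89% and 14.5%. TTTTT occurred in 14.8% against 20.4% of the first and 22.3% against 31.2% of the last 100 bases. Both motifs were thus less frequent in held introns, which were also richer in GC. A motif match is no evidence of binding.

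Ratios to the partner varied with the structure of the transcript. Those that hold no whole intron had a median log2 ratio of -2.51, and those with 1, 2 or at least 3 had -1.76, -1.77 and -1.58. Among transcripts with a single held intron, taken in 4 groups of near-equal size from short (66 to 125 bases) to long (611 to 6484 bases), the median log2 ratio was -1.17, -1.56, -1.82 and -2.52. By GC content of that intron, from low to high, it was -2.12, -1.97, -1.43 and -1.40. The next grouping counts the transcript's own bases only, and not bases of the partner that it lacks. By the number of bases outside all listed coding rows of the gene, the median log2 ratio was -1.07 for the 688 transcripts with under 100, -1.78 with 100 to under 300, -2.33 with 300 to under 1000 and -2.61 with 1000 or more. The share above the partner was 27.2% in the first of these groups and 12.2% in the last. The held intron and the outside bases are part of the length that divides the count. From short to long held intron, median transcript length was 769, 899, 1466 and 3228.5 bases. The median mean counts there were 47.8, 37.9, 34.5 and 44.5. From fewest to most outside bases, median length was 635, 700, 1088 and 3135 bases, at median mean counts of 44.1, 26.3, 22.4 and 35.1. How much of these orders comes from transcript length or from the division of shared reads was not tested.

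**Figure D3:**
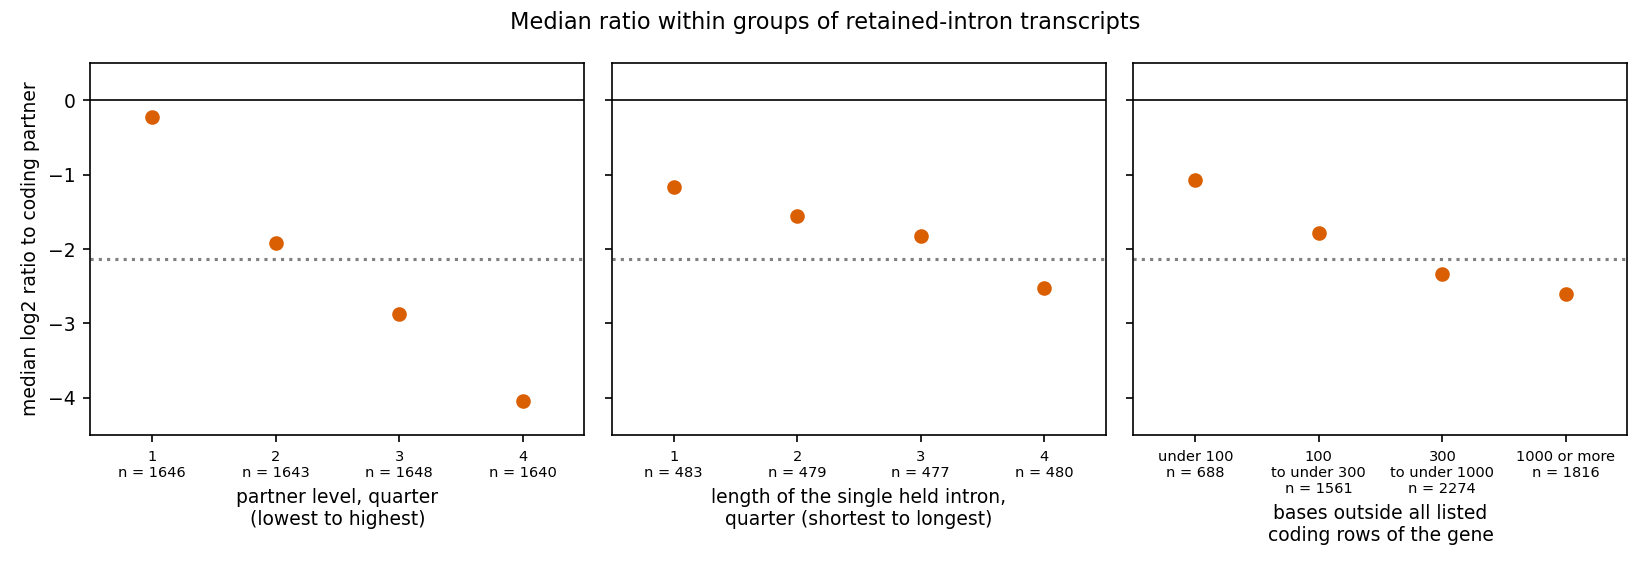
Median log2 ratio of retained-intron transcripts to their coding partners (vertical), 1 point per group, by level of the partner (left), length of the single held intron (middle) and bases outside all listed coding rows of the gene (right), with the number of transcripts under each point. The dotted line is the median over all 6577 transcripts, -2.14, and the medians are lower from left to right in each panel.

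The MANE Select transcript was listed for the genes of 5537 of the transcripts, whose median log2 ratio was -2.31 with 15.1% above the partner. Where it was not listed, the median over 997 transcripts in 568 genes was -1.35 with 26.9% above the partner. Of the 1115 transcripts above their partners, 268 (24.0%) came from such genes, against 15.2% of all.

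Rows of 2 other transcript types, treated in the same way, gave ratios close to these. The 2837 nonsense-mediated decay transcripts with a partner had a median log2 ratio of -1.84 with 22.3% above it, and the 3513 of type processed_transcript had -2.04 with 18.9% above it, against -2.14 and 17.0% for retained introns. The middle parts of the 3 distributions overlapped widely: the quartiles were -3.65 and -0.62 for retained introns, -3.39 and -0.19 for nonsense-mediated decay and -3.46 and -0.47 for processed_transcript. Genes with both a retained-intron and a nonsense-mediated decay transcript numbered 1100, which are 28.7% of the former genes and 48.2% of the latter.

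**Figure D4:**
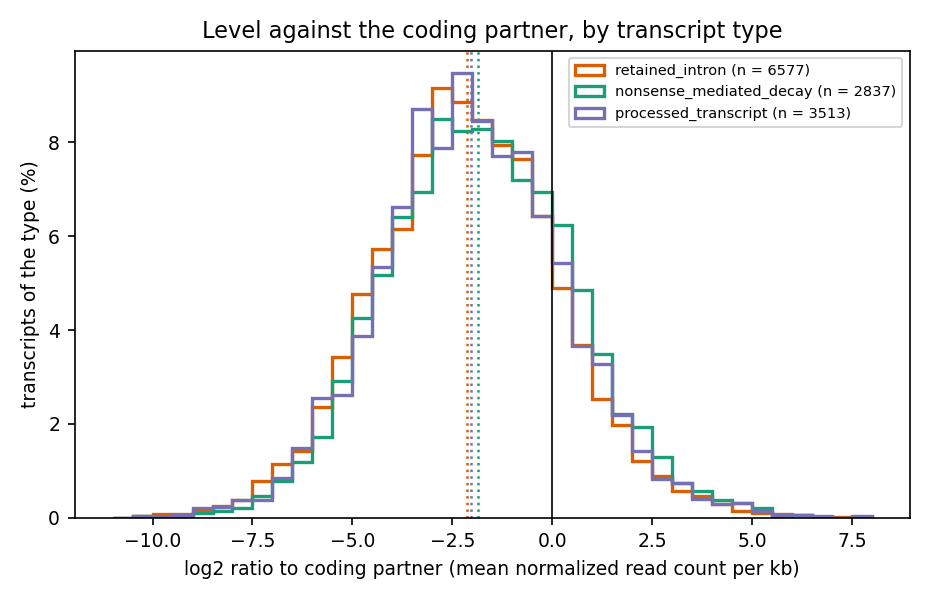
Distribution of the log2 ratio to the coding partner (horizontal, from mean normalized read counts per kb) for the 3 transcript types, as the percent of transcripts of each type per bin of 0.5, with dotted lines at the medians of -2.14, -1.84 and -2.04 and a solid line at equal levels. The 3 curves nearly coincide.

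Genes of the splicing machinery often had a retained-intron transcript. The lists below hold many highly expressed genes, and whether they differ from other genes of like level was not tested. Of 24 genes for SR and SR-related splicing factors with a coding row, 17 (70.8%) had at least 1, against 31.7% of all coding genes. Their 47 transcripts had a median log2 ratio of -2.58, and 7 were above the partner. SRSF3-005 (chr6:36600403-36602778), from the gene for the smallest SR protein, had 1841 against 1021 and a log2 ratio of 1.68. It is a single exon that holds introns 4 and 5. SRSF3-004 had 658 and a ratio of 0.04. SRSF10-007 had 1378 against 1042 (-0.04), the MANE Select transcript of that gene not being listed, and TRA2B-005, from the gene for a splicing activator, had 494 against 584 (-0.73).

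Of 25 genes for hnRNP proteins, which package nuclear RNA and influence splicing, 17 (68.0%) had a retained-intron transcript. Their 46 transcripts had a median log2 ratio of -1.71 and 12 were above the partner. HNRNPA2B1-003 had 2199 against 5139 at more than 3 times the length, for a log2 ratio of -3.10. HNRNPD-006, from the gene for AUF1, holds 4 introns, of which the last (chr4:82354155-82355303) lies in the 3′ UTR, and had 967 against 535 with a log2 ratio of 0.25. HNRNPH1 had 11 retained-intron transcripts, the most of any gene, with mean counts from 38.5 to 1872, and 9 of them were above the partner HNRNPH1-034 at 62.9. HNRNPH1-010 had the highest mean count, with a log2 ratio of 2.15, and HNRNPH1-038 the highest log2 ratio, 3.14, at a mean count of 500. The MANE Select transcript of HNRNPH1 was not listed and the partner was not in the annotation used here, so its introns were not compared.

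The CLK and SRPK kinases phosphorylate SR proteins. Of 12 genes of the CLK, SRPK and DYRK families, 4 (33.3%) had a retained-intron transcript, close to the 31.7% of all coding genes. Their 9 transcripts had a median log2 ratio of 2.47 within a range of -5.35 to 6.30, and 5 were above the partner. The named ones above it are of CLK1 and DYRK4, whose partners had mean counts of 9.14 and 8.11. CLK1-004 (chr2:200853081-200864691) had 268 against 9.14 for CLK1-007 and a log2 ratio of 4.21. It holds introns 3 (chr2:200860216-200861237) and 4 (chr2:200859747-200860124), the pair known to flank the skipped exon of this kinase gene. CLK1-002, with introns 4 and 7, had 79.5 and a log2 ratio of 2.47. SRPK1-003, with the first intron of SRPK1 (458 bases, 77.3% GC), had 81.3 against 2975 and a log2 ratio of -5.35.

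Among the U2AF, SF3 and snRNP proteins, which recognise splice sites, 17 of 30 genes (56.7%) had one, and the 44 transcripts had a median log2 ratio of -2.92 with 5 above the partner. SF3B3-014 had 1053 and SF3B3-010 had 764 against 3333 for a partner of 9720 bases, which gave log2 ratios of 1.67 and 1.01. SF3B2-016 had 518 against 3151 with -1.07. PRPF31-004, from the gene for a tri-snRNP protein, holds introns 10 and 12 and had 650 against 79.3, a log2 ratio of 3.25. For DDX and DHX RNA helicases the count was 32 of 48 genes (66.7%), with a median of -2.06 over 80 transcripts and 20 above the partner. DDX39B-004 and DDX39B-005, from the gene for the mRNA export factor UAP56, both hold intron 6 (chr6:31532912-31535366, 2455 bases) and had 774 and 668 against 18.4, with log2 ratios of 4.48 and 3.90. DDX17-003, with intron 11 of DDX17 (3940 bases), had 567 against 1848 and a log2 ratio of -2.13.

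Genes for ribosomal proteins and translation factors had retained-intron transcripts in more than 3 of 4 cases, mostly at a small fraction of the mRNA. Of 79 genes for cytosolic ribosomal proteins, 61 (77.2%) had one, and the median log2 ratio over 137 transcripts was -3.73 with 22 above the partner. For translation initiation and elongation factors the count was 32 of 41 (78.0%), with a median of -2.82 over 79 transcripts and 17 above. EIF4A2-006, from the gene for an RNA helicase of the initiation complex, holds 7 introns and had 1104 against 322, a log2 ratio of 0.28. EIF4G2-007 holds 6 and had 1139 against 3040 (-2.31). EIF1-004 had 1863 against 1241 (-0.25) and EEF2-009, with intron 8 of the elongation factor 2 gene, 809 against 19414 (-2.14). Of 35 aminoacyl-tRNA synthetase genes, 17 (48.6%) had one, with a median of -2.27 over 46 transcripts and 5 above. TARS-013 had 774 against 450 with a log2 ratio of 2.52, NARS-010, with intron 12 of NARS, 620 against 1823 with 0.02, NARS-002 312 with -1.05, and VARS-003 412 against 2451 with -0.48.

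**Figure D5:**
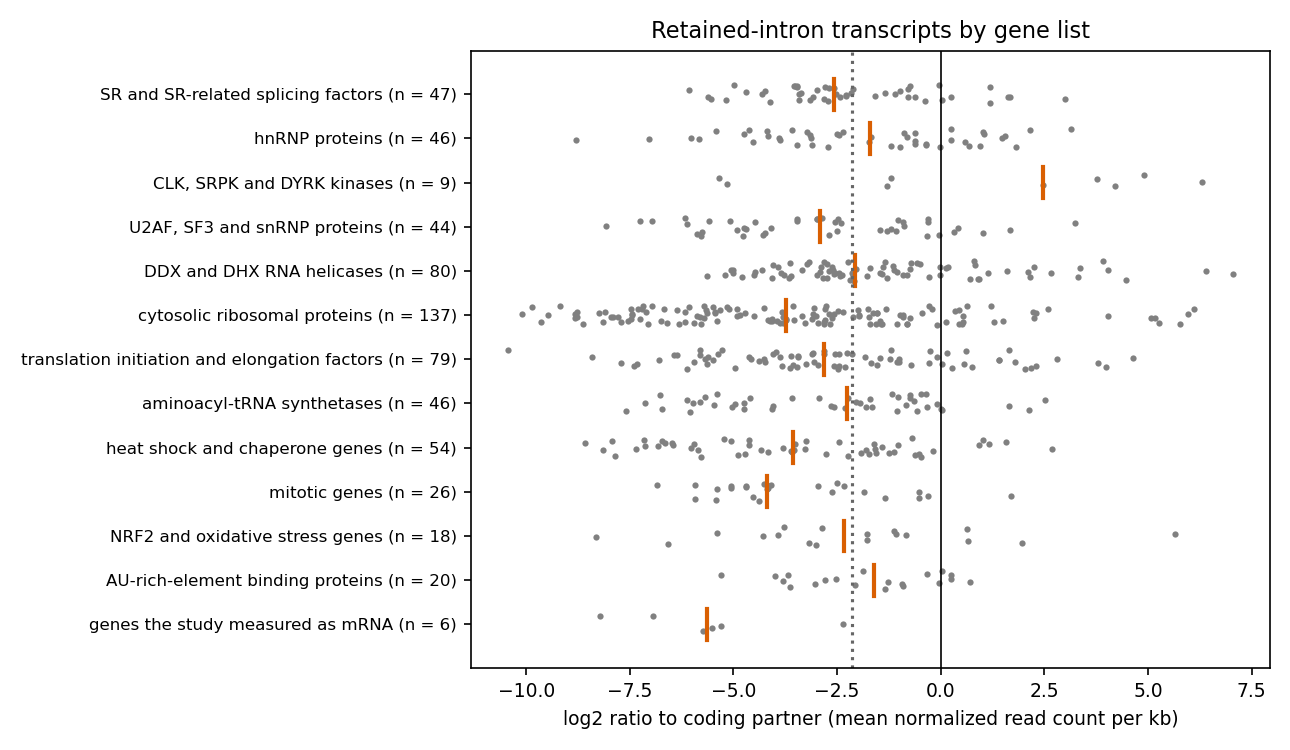
Log2 ratio to the coding partner (horizontal, from mean normalized read counts per kb) of each retained-intron transcript in the 13 gene lists, 1 grey point per transcript with random vertical spread, the median of each list as an orange bar, the median of all transcripts (-2.14) as a dotted line and equal levels as a solid line. The points of each large list span most of the range, and the median of the 9 CLK, SRPK and DYRK transcripts is the one above 0.

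Heat shock and chaperone genes had a retained-intron transcript in 22 of 33 cases (66.7%), with a median log2 ratio of -3.57 over 54 transcripts and 5 above the partner. Besides HSP90B1-003, HSP90AA1-009 and HSP90AA1-004, from the gene for the inducible cytosolic HSP90, had 2927 and 1941 against 41615 for the partner, the highest partner count in the table, and log2 ratios of -1.04 and -1.81. They hold introns 5 (chr14:102084565-102084680) and 2 (chr14:102086125-102086216). HSPD1-003, from the gene for the mitochondrial chaperonin HSP60, had 1764 against 7290 (-0.63).

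Mitotic genes had the lowest median of the lists with more than 6 transcripts. Of 32, 16 had a retained-intron transcript, and the 26 transcripts had a median log2 ratio of -4.20 with 1 above the partner. CCNB2-003, with intron 2 of the cyclin B2 gene, had 393 against 1290 (-0.54), PLK1-010, from a mitotic kinase gene, 314 against 1271 (-0.31), CCNB1-007 196 against 1425 (-1.34), and TOP2A-005, from the topoisomerase II alpha gene, 245 against 9047 (-2.50). Of 25 NRF2 and oxidative stress genes, 9 (36.0%) had one, with a median of -2.33 over 18 transcripts and 4 above. TKT-013, from the transketolase gene of the pentose phosphate pathway, had 316 against 30.9 and a log2 ratio of 5.66. PGD-011 had 296 against 2407 (-1.13) and SQSTM1-007, from the gene for the autophagy receptor p62, 191 against 8066 (-3.92).

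Of 20 genes for proteins that bind AU-rich elements, the class to which HuR belongs, 10 had a retained-intron transcript, with a median log2 ratio of -1.61 over 20 transcripts and 4 above the partner. NCL-014 had 2740 against 7411 and a log2 ratio of 0.71, and KHSRP-007, from the gene for a decay-promoting protein, 440 against 1345 with -0.03. The last list held the genes whose mRNA was assayed elsewhere in the experiments. Of its 10 genes with a coding row, 4 had a retained-intron transcript, and these 6 transcripts were all under their partners, with a median of -5.63. CD82-010, from the gene for a metastasis-suppressing tetraspanin, had 16.6 against 138 (-2.35) and holds intron 5 (chr11:44605183-44605354). CTNNB1-004, from the beta-catenin gene, had 11.99 against 4015 (-6.94), MSI2-007 20.7 against 684 (-5.30), and the 3 of GAPDH 67.2, 18.01 and 9.35 against 2279 (-5.75, -5.51 and -8.22). No retained-intron row was listed for ELAVL1, the gene of HuR, nor for FOXQ1, SNAI1, BCL2, XIAP and LAMA4.

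After HNRNPH1, the most retained-intron transcripts in a gene were 9, in 4 genes, of which CPSF1 and PRRC2A are described. All 9 of CPSF1, from the gene for a cleavage and polyadenylation factor subunit, stood under the partner, with log2 ratios of -0.28 to -2.47 and mean counts of 19.2 to 102 against 798. Of these, 7 hold whole introns of 70 to 86 bases. All 9 of PRRC2A stood under a partner at 3991, with log2 ratios of -0.41 to -4.38, and 8 hold a whole intron. Intron 24 of PRRC2A (chr6:31635750-31635966) and intron 23 (chr6:31635466-31635581) are each held by 2 of its transcripts. Over all genes, 341 introns were held by more than 1 transcript.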

How the data were processed

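The values used here are the mean normalized read counts of the deposited table, a signal that the authors averaged over libraries after normalization. It is not stated which libraries were averaged. The authors made libraries with an mRNA kit from MDA-MB-231 cultures (replicates 1 and 2 of each condition, per the labels), mapped reads with STAR to GENCODE release 24 transcripts, estimated reads per transcript with eXpress and compared groups with DESeq2. Tool versions are not given in the sources used here. The table also holds the authors' own comparison of the conditions (log2 fold change, p-value and q-value), which were not used. It has no counts per library, so depth is unknown. Another KH-3 dose named in the methods was not analysed here.

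Transcript type, symbol and length come from the table. Counts were divided by length in kb, with no pseudocount and no filter, and log2 ratios taken to the coding partner. eXpress divides reads shared between overlapping transcripts, so each ratio depends on that division. Exons, introns and MANE Select tags come from GENCODE release 44 on hg38, matched by transcript ID without version. Of 6577 retained-intron transcripts, 6543 were found, 6226 of them with the length given in the table. Both the transcript and its partner had the listed length in 2120 of the 6339 pairs compared. In the other pairs, the model of the partner or of the transcript may differ from the one that was quantified. Introns of at least 30 bases that lie, with a flanking base on both sides, in an exon of the retained-intron transcript were taken as held. A 3′ end counts as shared within 50 bases.

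Named were the 10 transcripts of highest count, the 10 of highest ratio with a count of at least 50, the 5 of lowest ratio, up to 4 of highest count from each of 13 gene lists written from general knowledge, the 3 genes with most transcripts, and the genes the study measured. One transcript that this rule names is not reported here. Splice sites are from the first 2 groups, and whole introns are the first 3 of at most 300 bases. These members and lists were chosen with earlier results of these data known. The minimum intron length, the MANE Select comparison, the count of bases outside coding rows, the split by model and the stop codon check were chosen after seeing the data. The choice of partner, the ratio, the location of held introns, their GC content and the stop codon check were tested on simulated data. The other measures were not. The software was Python 3.11.15 with pysam 0.24.0, numpy 2.4.6, scipy 1.17.1, pandas 2.3.3 and matplotlib 3.10.9.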

Additional observations from a re-analysis of the deposited data

How the results depend on the processing

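No paired analysis was possible because the table has no values per library, and for the same reason no library could be left out. The median log2 ratio of -2.14 stayed negative under every alternative run. It was -3.25 with counts as listed, -2.64 against the sum of the coding rows, -1.27 against the longest coding row, -0.086 against the coding row of lowest count, and -1.80 with 1 transcript per gene. With both the transcript and its partner at a count of at least 50 (2142 pairs) or 200 (515 pairs) it was -1.24 and -0.75. In the same order, the share above the partner was 11.97%, 12.2%, 30.4%, 48.7%, 20.3%, 22.8% and 32.0%, against 17.0%. Added after seeing the data, the restriction to genes with the MANE Select transcript gave -2.31 and 15.1%, and that to at least 100 bases outside coding rows gave -2.28 and 15.6%. The median share of gene signal of 7.38% was 13.8% per kb, 17.7% for transcripts with a count of at least 50 and 12.8% with all such transcripts of a gene summed. Transcripts with a held intron were 39.2% with equal lengths in both releases (2120 pairs) and 45.6% with introns of any listed coding row. The median intron length was 299 with equal lengths, GC content 53.8% for transcripts with 1 held intron, and the share of last introns 11.997%, 10.9% and 8.37% under these 3 choices. For 3′ ends within 10 bases the share was 18.9%. TTTTT in place of ATTTA gave 14.8%. With counts as listed, the ratio was -2.63 for nonsense-mediated decay and -3.63 for processed_transcript. With 1 transcript per gene, the median was higher in every list but that of the CLK, SRPK and DYRK kinases, which went from 2.47 to 1.46. The U2AF, SF3 and snRNP list moved to -1.29 and the heat shock list to -1.77. The SR list moved to -1.58, the NRF2 list to -1.13, the hnRNP list to -0.89 and the mitotic list to -3.35. Matching by Ensembl gene identifier, added later for the number of transcripts, left it at 6577. The choice of coding row moved the ratio most among the alternatives run.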

Other observations

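A further 612 rows of type retained_intron, in 371 genes, had no protein-coding row to be compared with. Their median mean count was 18.6, against 28.8 for those with a partner. The highest were WASH5P-009 at 1059, from a WASH family pseudogene, SNHG3-004 at 1016 and SNHG3-002 at 574, from a snoRNA host gene, DANCR-002 at 667, from another noncoding gene, and RBM39-004 at 474, from the gene for a splicing cofactor. Of the 371 genes, 51 also had a nonsense-mediated decay row and 53 a processed_transcript row, while 220 had retained-intron rows alone.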
